A study of Mus musculus with 2 samples.

Results

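The cytotoxic granule genes described here are 8 genes, *Gzma*, *Gzmb*, *Gzmc*, *Prf1*, *Nkg7*, *Srgn*, *Ctsw* and *Serpinb9*, chosen by name among the 23282 gene rows that were counted in 2 libraries of Th17 cells. The Control library came from naïve CD4 T cells of *Fak* fl/fl mice that received a control retrovirus, and the RV-Cre library from the same kind of cells that received a retrovirus carrying Cre recombinase, which removes the floxed part of *Fak* (*Ptk2* in the tables). Cells came from spleens of female mice aged 6 to 8 weeks, were activated for 20 to 24 hours before transduction with anti-CD3ε (10 μg/ml, plate-bound) plus anti-CD28 (5 μg/ml, soluble), and were kept for 3 days with IL-6 at 50 ng/ml, TGFβ1 at 1 ng/ml, TNFα at 1 ng/ml and IL-1β at 2 ng/ml and with antibodies to IFNγ and IL-4 at 5 μg/ml each. GFP+ cells were then sorted. For Control cells the genotype field gives WT but the title gives *Fak* fl/fl, and the title was followed. Cre and the loss of *Fak* came together in the RV-Cre library and cannot be told apart, and 1 library per condition leaves no replicate check. The sources used here do not state whether cells of several mice were pooled.

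Cytotoxic lymphocytes store granzymes, which are serine proteases, together with the pore-forming protein perforin in secretory granules. Serglycin, the proteoglycan product of *Srgn*, holds the cationic proteases in the granule, NKG7 is a granule membrane protein, cathepsin W (*Ctsw*) is a cysteine protease of cytotoxic lymphocytes, and the serpin encoded by *Serpinb9* inhibits granzyme B and shields the cell from its own protease. The genes are best known from CD8 T cells and NK cells, and activated CD4 T cells can express part of them.

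In the RV-Cre library the granzyme transcripts were lower than in the Control library, and *Srgn* was lower by nearly 2-fold. *Gzmb*, with 8 reads against 198, was lower by more than *Gzma*. *Gzmc*, with 0 reads against 10, has only a lower bound for its fold and was not ranked. *Nkg7* and *Ctsw* were instead moderately higher, *Serpinb9* was slightly lower, and *Prf1* was at 14 reads or fewer in either library. The granule genes thus differed in both directions. The counts are reads per gene from libraries of the QuantSeq 3′ type, whose reads lie close to the polyadenylated end, so that longer transcripts do not give more of them. Values were scaled by the TMM method and are given as normalized reads, as CPM (reads divided by the library total and scaled to 1e+06) or as ratios of RV-Cre over Control. Where a gene is given with a pair of read numbers, Control comes first. Each ratio has an exact 95% Clopper-Pearson interval, which covers counting error only and compares these 2 libraries, not the conditions.

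The 3 granzyme genes of this set lie in 2 places in the mouse genome (GRCm38, the build named mm10 in the submitters' notes, with gene models of GENCODE M21). *Gzmb* (chr14:56258838-56262260, minus strand, 5 exons) and *Gzmc* (chr14:56231441-56234656, minus strand, 5 exons) are 24.2 kb apart at the end of a cluster of 7 granzyme genes that spans 144.6 kb. *Gzma* (chr13:113093825-113100981, minus strand) lies 70.6 kb from *Gzmk*. The promoter-proximal bases of *Gzma*, *Gzmb* and *Gzmc* are shown because these genes were all lower in the RV-Cre library, and those of *Nkg7* because it was higher. The runs come from RefSeq on GRCm38.p6, are written 5′ to 3′ on the strand of the gene, and end just before the RefSeq start, or, for *Nkg7*, before an earlier start in GENCODE. They cover chr13:113100982-113101231 (minus strand) for *Gzma*, chr14:56262335-56262584 (minus strand) for *Gzmb*, chr14:56234658-56234907 (minus strand) for *Gzmc* and chr7:43436888-43437072 (plus strand) for *Nkg7*. Capitals mark matches on either strand to TGTGGT (RUNX), TGANTCA (AP-1), TGACGTCA (CRE), GGTGTGA (T-box) and TTCNNNGAA (STAT).

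Gzma: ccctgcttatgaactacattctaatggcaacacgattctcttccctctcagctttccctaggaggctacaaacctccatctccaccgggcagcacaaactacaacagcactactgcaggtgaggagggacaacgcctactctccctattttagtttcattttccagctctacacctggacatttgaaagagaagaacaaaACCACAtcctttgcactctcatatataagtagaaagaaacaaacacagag

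Gzmb: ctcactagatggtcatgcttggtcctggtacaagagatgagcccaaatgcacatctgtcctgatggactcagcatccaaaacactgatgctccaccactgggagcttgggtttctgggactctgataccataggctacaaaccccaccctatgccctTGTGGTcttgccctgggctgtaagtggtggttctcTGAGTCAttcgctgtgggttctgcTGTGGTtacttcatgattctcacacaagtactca

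Gzmc: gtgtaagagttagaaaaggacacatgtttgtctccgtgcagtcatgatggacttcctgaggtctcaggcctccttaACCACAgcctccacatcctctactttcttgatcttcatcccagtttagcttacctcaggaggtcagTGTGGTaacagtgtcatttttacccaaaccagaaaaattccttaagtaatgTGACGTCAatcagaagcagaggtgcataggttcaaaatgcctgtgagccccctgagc

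Nkg7: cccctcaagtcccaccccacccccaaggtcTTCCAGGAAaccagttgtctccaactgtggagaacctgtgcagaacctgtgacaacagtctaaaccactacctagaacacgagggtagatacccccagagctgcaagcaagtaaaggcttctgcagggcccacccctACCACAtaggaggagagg

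The RUNX letters stood 50 bases upstream of the RefSeq start in *Gzma*, 34 and 93 bases upstream in *Gzmb*, 108 and 174 bases upstream in *Gzmc* and 83 bases upstream in *Nkg7*. *Gzmb* also held an AP-1 match 58 bases upstream, *Gzmc* a CRE match 57 bases upstream and *Nkg7* a STAT match 220 bases upstream. Of the 8 windows of 250 upstream bases that RefSeq gave for 7 of the granule genes, 6 held TGTGGT, against 4608 of 32817 such windows of all genes. The letters were thus present beside genes that were lower and beside *Nkg7*, which was higher. TGANTCA stood in 6.75%, TGACGTCA in 1.55%, GGTGTGA in 3.33% and TTCNNNGAA in 7.01% of all windows, and each in 1 of the 8. The T-box match belonged to *Nkg7* and fell in the part of its window past the printed bases. The motifs do not overlap within the printed runs. They were chosen with the sequences in view, and a match is a description of letters, not of binding.

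The Control library held 13799264 counted reads and the RV-Cre library 12305010, so that a count of 0 allows up to 3 reads, or 0.217 CPM and 0.244 CPM. The ribosomal RNA precursor *Rn45s*, which is in these totals and so in every CPM, was at 85000 CPM for Control and 146008 CPM for RV-Cre, a ratio of 1.73, and its part in the granule gene values beyond the scaling without it was not tested. *Ptk2* had 110 Control reads and 31 RV-Cre reads, a ratio of 0.318 (95% interval 0.206 to 0.477). Its reads lie close to the polyadenylated end and need not cover the floxed part. The ratio thus does not measure how much of that part was removed. A gene was counted as changed when it had a log2(normalized reads + 1) of at least 4 in at least 1 library, which is 15 normalized reads, and a ratio of at least 2-fold in either direction. Of the 12112 genes past that minimum, 14.2% were higher by that rule in the RV-Cre library and 12.3% were lower. Of the 8 granule genes, 6 passed the minimum. Among these 6, the lower ones were *Gzma* and *Gzmb*, 0 were higher and 4 lay between. *Gzmb* passed through the Control library alone. *Prf1* and *Gzmc* did not pass. The median log2 ratio of the 6 genes was -0.70, and that of all genes past the minimum was -0.01. Scaled by library totals without *Rn45s* these medians were -0.34 and 0.09, and scaled to *Gapdh* -0.015 and 0.43. With either scaling 7 granule genes passed the minimum. At a fold threshold of 1.5, the lower genes were *Gzma*, *Gzmb* and *Srgn*, beside 22.9% of all genes, and *Ctsw* was the only higher one, beside 23.5%.

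**Figure D1:**
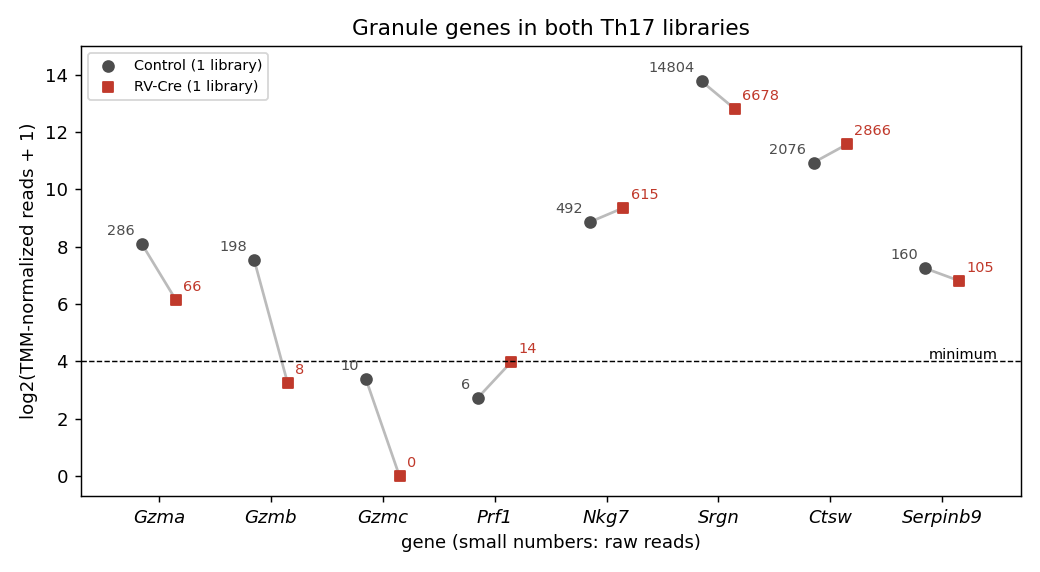
Level of each granule gene in the Control library (grey circles) and the RV-Cre library (red squares), as log2(TMM-normalized reads + 1), with the raw reads beside each point and the expression minimum of 4 as a dashed line. Each library is 1 sample, so there are no error bars. *Gzmb* has 198 Control reads and 8 RV-Cre reads, the latter under the minimum, whereas *Nkg7* and *Ctsw* lie higher in the RV-Cre library.

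Granzyme B cleaves caspases and other substrates after aspartate and is the main apoptosis-inducing protease of the granule. *Gzmb* had 198 Control reads (14.3 CPM) and 8 RV-Cre reads (0.650 CPM). The ratio was 0.0456 (95% interval 0.0194 to 0.0916), that is, 21.9-fold lower, and the whole interval lay beyond 2-fold. Its log2 ratio of -4.30 was the 38th lowest of the 12112 genes past the minimum. Among the 3846 of them whose log2 values averaged 5 to 8, 15.6% were lower by 2-fold and 12.8% higher, and 0 had a lower log2 ratio than *Gzmb*. The average of *Gzmb* was 5.40. It is taken over the same 2 values that give the ratio, so genes with few RV-Cre reads tend to fall below that range. The 0 thus depends in part on where the range was cut. With 10 in place of 1 added to the normalized reads the log2 ratio of *Gzmb* was -3.41.

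Granzyme A is a trypsin-like protease that cuts after basic residues. *Gzma* had 286 Control reads (20.7 CPM) and 66 RV-Cre reads (5.36 CPM), a ratio of 0.260 (95% interval 0.196 to 0.341). It was 3.84-fold lower, less than *Gzmb*, and it remained above the minimum in either library. In the same range of mean expression, 3.69% of genes had a lower log2 ratio than *Gzma*, at -1.93. *Gzmc*, whose product is closely related to granzyme B, had 10 Control reads and 0 RV-Cre reads. Set against the limit of 3 reads it was at least 2.95-fold lower with the Control count taken as exact, and the upper bound of its 95% interval was a ratio of 0.503. The remaining granzyme genes were near or at 0. *Gzmd*, *Gzme*, *Gzmf*, *Gzmg*, *Gzmn* and *Gzmk* had 0 reads in either library, and *Gzmm* had 4 Control reads and 0 RV-Cre reads. Of the 7 cluster genes on chromosome 14, reads were thus found on *Gzmc* and *Gzmb* alone at this depth.

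The make-up of the granzyme reads also differed between the libraries, and these shares do not depend on how the libraries are scaled. The 3 granzyme genes held 494 Control reads and 74 RV-Cre reads. *Gzmb* made up 40.1% (exact 95% interval 35.7 to 44.6) of the Control total and 10.8% (4.78 to 20.2) of the RV-Cre total. *Gzma* made up 57.9% (53.4 to 62.3) and 89.2% (79.8 to 95.2). Reads of *Gzma* per read of *Gzmb* went from 1.44 to 8.25, which is a 5.71-fold difference (95% interval 2.65 to 14.1, counting error only). *Gzmb* was thus lower by more than *Gzma*.

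**Figure D2:**
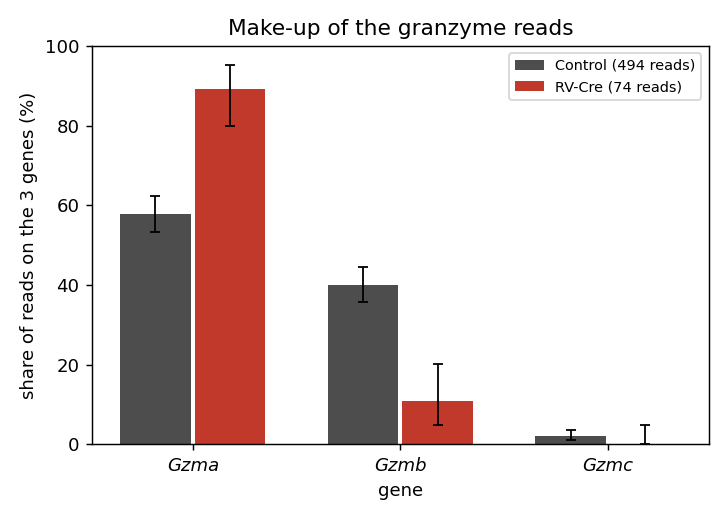
Share of each gene in the summed reads of *Gzma*, *Gzmb* and *Gzmc* (percent, vertical axis) in the Control library (grey, 494 reads) and the RV-Cre library (red, 74 reads). Bars are shares in 1 library and error bars are exact 95% binomial intervals. *Gzmb* holds 40.1% of the Control reads and 10.8% of the RV-Cre reads, and the intervals do not overlap.

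Perforin forms the pore through which granzymes reach the cytosol of the target cell. *Prf1* (chr10:61297833-61304680, plus strand) had 6 Control reads (0.435 CPM) and 14 RV-Cre reads (1.14 CPM). Its ratio of 2.63 had a 95% interval from 0.951 to 8.36, so a difference was not detectable at this depth. In the RV-Cre library its log2 value of 3.99 lay just under the minimum of 4. Granzyme and perforin transcripts were not in step. Reads of *Prf1* per read of *Gzmb* were 0.0303 for Control and 1.75 for RV-Cre, a 57.8-fold difference with a wide 95% interval from 15.3 to 226.

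Serglycin was the most abundant of these transcripts. *Srgn* (chr10:62493833-62527451, minus strand) had 14804 Control reads (1073 CPM) and 6678 RV-Cre reads (542.7 CPM). The ratio was 0.509 (95% interval 0.494 to 0.524), with a log2 ratio of -0.97, just short of the 2-fold threshold, and the interval spans it. *Srgn* is no marker of cytotoxic cells alone, since many blood cells make serglycin. In the top range of expression, an average log2 value from 10 up, 6.07% of 2473 genes were lower by 2-fold and 3.28% higher, and 6.63% had a lower log2 ratio than *Srgn*. Per read of *Srgn*, the reads of *Gzma* were lower in the RV-Cre library by a ratio of 0.512 (95% interval 0.385 to 0.672), so *Gzma* was lower by more than *Srgn*.

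*Nkg7* (chr7:43437073-43438249, plus strand), whose product is needed for efficient release of granules, had 492 Control reads (35.7 CPM) and 615 RV-Cre reads (50.0 CPM). The ratio was 1.41 (95% interval 1.25 to 1.59), higher by more than counting error and below 2-fold. In its own range of expression, an average log2 value of 8 to 10, 4.05% of 3803 genes were higher by 2-fold and 8.60% lower, and 17.1% had a higher log2 ratio than *Nkg7*. *Ctsw* (chr19:5465043-5468507, minus strand) had 2076 Control reads (150.4 CPM) and 2866 RV-Cre reads (232.9 CPM), a ratio of 1.56 (95% interval 1.47 to 1.65). Among the 2473 most abundant genes, 8.45% had a higher log2 ratio than *Ctsw*, at 0.64. *Nkg7* and *Ctsw* kept nearly the same proportion to each other, with 0.237 and 0.215 reads of *Nkg7* per read of *Ctsw* and a ratio of 0.905 whose 95% interval, from 0.792 to 1.03, includes 1. The 3′ end of *Ctsw* shares 9 bases with the opposite-strand gene *Fibp*, which had 317 and 592 reads, and whether the counting used strand is not given in the sources used here. Its part in the *Ctsw* counts was not tested.

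*Serpinb9* (chr13:33003250-33017957, plus strand) had 160 Control reads (11.6 CPM) and 105 RV-Cre reads (8.53 CPM). The ratio was 0.741 (95% interval 0.573 to 0.953), which is small beside the difference in *Gzmb*. Reads of the inhibitor gene per read of *Gzmb* were 0.808 for Control and 13.1 for RV-Cre, a 16.2-fold difference (95% interval 7.60 to 39.6). Per read of *Gzma* they were 0.559 and 1.59, a 2.84-fold difference (95% interval 1.95 to 4.16). The balance of protease and inhibitor transcripts thus differed between the libraries by more for *Gzmb* than for *Gzma*. *Serpinb9* opens a cluster of 7 related genes on chromosome 13 that spans 492.8 kb. The other 6, *Serpinb9b* to *Serpinb9g*, summed to 4 Control reads and 43 RV-Cre reads, a ratio of 12.1 (95% interval 4.41 to 46.5), a sum chosen after its values were seen. Most of these reads were on *Serpinb9b*, whose exons overlap another annotated gene, with 4 and 24, *Serpinb9f* with 0 and 10 and *Serpinb9g* with 0 and 8. Genes of so few reads were often higher in the RV-Cre library. Of the 1990 genes past the minimum whose log2 values averaged under 5, 49.9% were higher by 2-fold and 20.8% lower. In the last 500 bases of the annotated coding transcripts, 0 of the 8 genes' 50-base words occurred in a transcript of another gene. Exact reads of that length from there are thus not shared with an annotated paralog. Reads with mismatches were not checked.

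**Figure D3:**
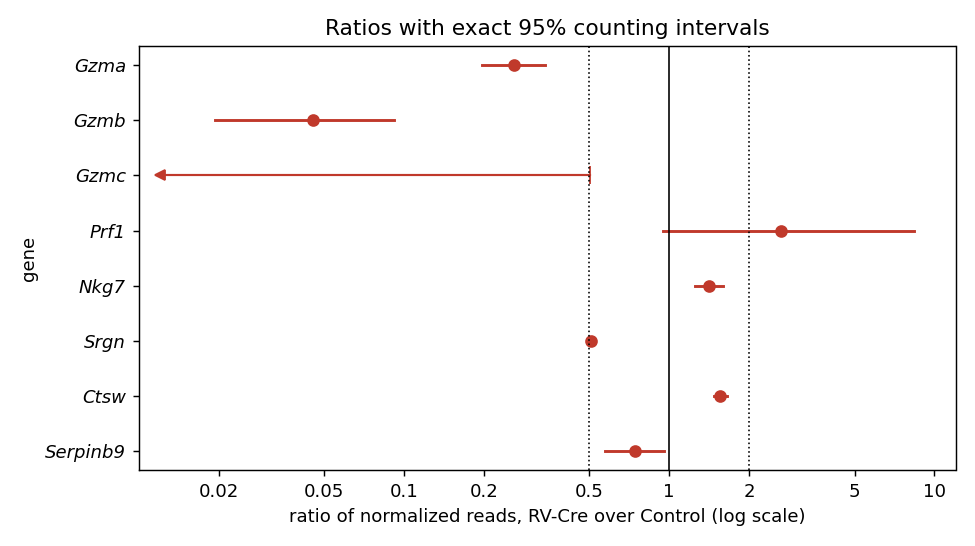
Ratio of normalized reads, RV-Cre over Control, on a log axis for each granule gene, with exact 95% counting intervals. The solid line is a ratio of 1 and the dotted lines are 2-fold; the arrow for *Gzmc* runs from its upper bound of 0.503 toward 0 because the RV-Cre library held 0 reads. *Gzma* and *Gzmb* lie wholly left of the 2-fold line, *Srgn* lies on it, and *Nkg7* and *Ctsw* lie between 1 and 2.

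By raw reads, the order in the Control library was *Srgn*, *Ctsw*, *Nkg7*, *Gzma*, *Gzmb*, *Serpinb9*, *Gzmc* and *Prf1*. The exact Poisson intervals of the neighbours *Gzmb* (up to 227.6) and *Serpinb9* (up to 186.8) overlapped, as did those of *Gzmc* and *Prf1*. In the RV-Cre library the first 3 places were the same, and then came *Serpinb9*, *Gzma*, *Prf1*, *Gzmb* and *Gzmc*. There *Serpinb9* (85.9 to 127.1 reads) stood above *Gzma* (51.0 to 84.0 reads) without overlap, whereas *Prf1* (7.65 to 23.5) and *Gzmb* (3.45 to 15.8) had overlapping intervals, and those of *Gzmb* and *Gzmc* (up to 3.69) overlapped slightly at 8 and 0 reads. *Gzmb* stood at place 5 in the first order and 7 in the second, and *Serpinb9* at 6 and 4. In bulk RNA, fewer cells that make a transcript and less of it per cell cannot be told apart.

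**Figure D4:**
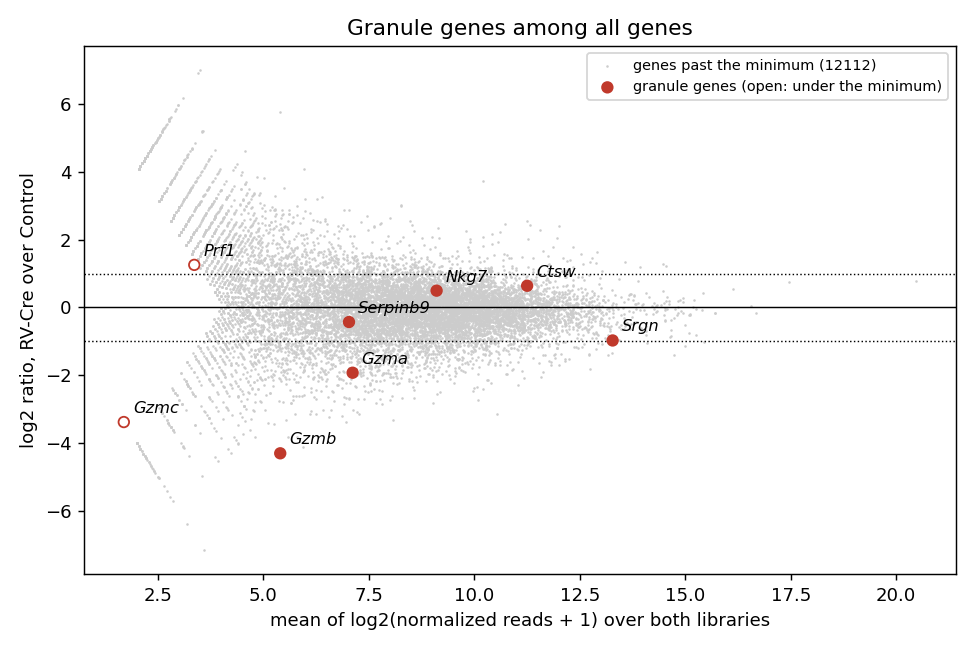
Log2 ratio, RV-Cre over Control, against the mean of log2(normalized reads + 1) for the 12112 genes past the expression minimum (grey) and the granule genes (red, open where under the minimum). Dotted lines mark 2-fold. *Gzmb*, at -4.30, lies at the lower edge of the genes of its mean level, a mean that includes its low RV-Cre value. *Nkg7* and *Ctsw* lie above 0.

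Genes of granule processing and secretion were followed with lists drawn up with earlier results of these data known, and they are described here by counts alone. Of 7 genes that process granzymes and perforin, all past the minimum, 1 was lower by 2-fold, 1 higher and 5 between, shares near the 12.3% and 14.2% of all genes, with a median log2 ratio of -0.40. *Ctsc*, the dipeptidyl peptidase that activates progranzymes, was at 2015 and 871 reads, with a ratio of 0.488 (0.450 to 0.528). *Ctsh*, a further cathepsin able to do so, had 70 and 169 reads, a ratio of 2.72. *Ctsl*, a cathepsin linked to perforin maturation, had 65 and 33 reads and a log2 ratio of -0.79, and *Furin* had 10201 and 5252 reads and one of -0.78. *Cst7*, the cystatin that restrains *Ctsc*, was at 137 and 100 reads, and its ratio of 0.824 (0.630 to 1.07) was within counting error of 1. Exons of *Ctsl* and *Furin* overlap those of other annotated genes.

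Of 31 genes of granule transport and exocytosis, 29 passed the minimum, of which 5 were higher by 2-fold, 1 lower and 23 between. Their median log2 ratio was 0.40, and 21 of the 29 lay above 0, against 6012 of all 12112 genes, some of them within counting error of 0. The 5 of 29 is close to the 14.2% of all genes, and the 1 of 29 lies below the 12.3%. The lower gene was *Stx11*, a syntaxin required for granule release, with 1910 and 609 reads and a ratio of 0.360 (95% interval 0.328 to 0.394). The largest ratios were those of *Vamp4* with 72 and 191 reads, *Syt7* with 10 and 27 reads and *Cd63*, a tetraspanin of the granule membrane, with 102 and 224 reads. *Unc13d*, *Stxbp2* and *Rab27a*, which dock and prime granules and are named here after their values were seen, had ratios of 1.43, 1.54 and 0.968. *Lamp1*, the degranulation marker CD107a, had 2357 and 1934 reads, a ratio of 0.926, and is named on the same terms. The *Syt7*, *Rab27a* and *Lamp1* models overlap other annotated genes. Other serpins of clade B were few. Of 19 genes 4 passed, among them *Serpinb6a*, whose exons overlap 3 other genes, with 78 and 245 reads, and *Serpinb1a* with 100 and 55 reads.

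**Figure D5:**
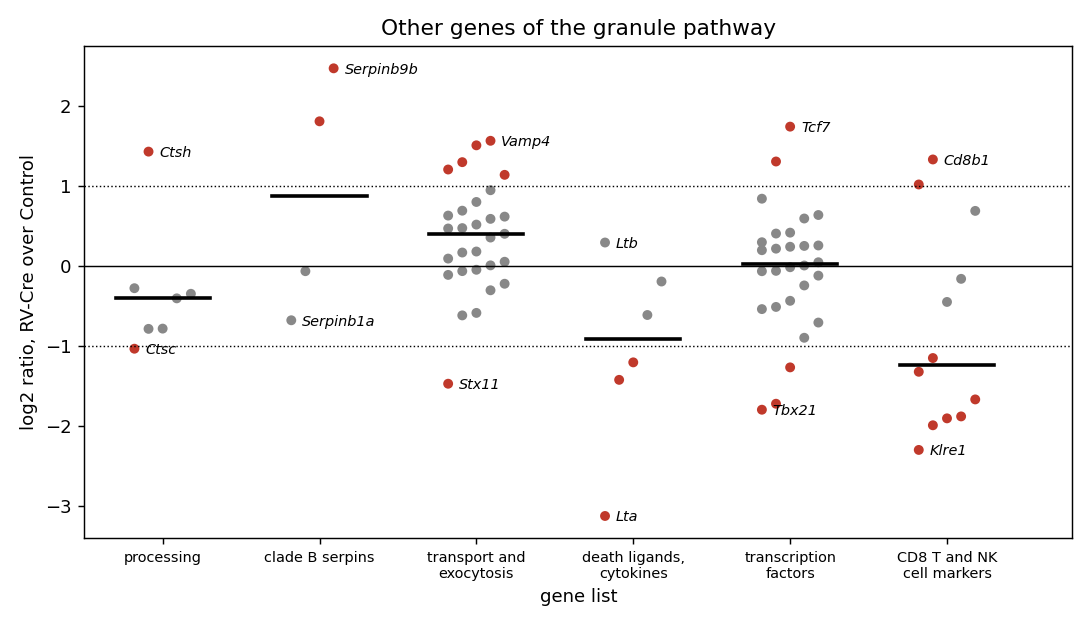
Log2 ratio, RV-Cre over Control, of each gene past the minimum in 5 lists of the granule pathway and in the list of CD8 T and NK cell markers. Each point is a gene, red where at least 2-fold, black bars are list medians, and the highest and lowest gene of each list is named. Of the transport and exocytosis genes 21 of 29 lie above 0, with *Stx11* at -1.47, and of the death ligands and cytokines 5 of 6 lie below it.

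Of the 8 death ligands and cytokines listed, 6 passed, of which 3 were lower by 2-fold (beside 12.3% of all genes), 0 higher (beside 14.2%) and 3 between, with a median log2 ratio of -0.91. The lower genes were *Lta* (lymphotoxin α) with 4667 and 472 reads and a ratio of 0.114, *Ifng* with 126 and 41 reads and one of 0.367, and *Tnf* with 1787 and 686 reads and one of 0.433. *Fasl*, the Fas ligand gene, which was under the minimum and is named after its values were seen, had 8 Control reads and 0 RV-Cre reads. *Ltb* was at 712 and 774 reads, a ratio of 1.23, and *Tnfsf10* (TRAIL) at 75 and 58 reads, a ratio of 0.873 (0.609 to 1.25) within counting error of 1. An *Ifng* exon overlaps that of another annotated gene.

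A list of 29 genes drawn up for transcription factors of cytotoxic genes had 28 with a row, all past the minimum, and included *Mycbp2*, which encodes a ubiquitin ligase and not a transcription factor. Of these 28, 3 were lower by 2-fold, 2 higher and 23 between, with a median log2 ratio of 0.03. Beside the 12.3% lower and 14.2% higher of all genes, the list had no larger share of called genes in either direction, and the values that follow describe single genes. *Tbx21*, which encodes T-bet, an activator of *Gzmb* and *Ifng*, had 1569 Control reads and 399 RV-Cre reads, a ratio of 0.287 (95% interval 0.256 to 0.321). *Zbtb32*, with 200 and 53 reads, and *Hopx*, with 132 and 48 reads, were the other lower factors. The higher ones were *Tcf7*, a factor of naïve and memory cells, with 142 and 424 reads, and *Zeb2* with 39 and 87 reads. *Eomes*, the T-bet paralog, had 14 and 23 reads, and its ratio of 1.85 (0.914 to 3.90) was within counting error of 1. *Runx3* and the gene of its partner, *Cbfb*, are named after their values were seen because of the RUNX letters shown above. *Runx3* was at 4258 and 4639 reads, a ratio of 1.23, and *Cbfb* had 2223 and 1206 reads, a ratio of 0.612. *Hopx*, *Zeb2* and *Eomes* overlap other annotated genes.

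The cells were isolated with a naïve CD4 T cell kit before culture and sorted for GFP after it, steps that would remove many other cells. Genes listed as markers of cells other than CD4 T cells were still read in either library. The cells that these reads came from are not known. *Cd4* had 1489 and 1342 reads, a ratio of 1.02. Of 8 general T cell markers 2, *Cd3d* and *Cd3e*, were higher by 2-fold (beside 14.2% of all genes), 0 lower (beside 12.3%) and 6 between. The ratios ran from 2.30 for *Cd3d* to 0.504 for *Cd5*. All 16 CD8 T cell and NK cell markers had reads, and of the 12 past the minimum 7 were lower by 2-fold (beside 12.3% of all genes) and 2 higher (beside 14.2%). The summed level of the 16 markers was 236.8 CPM for Control against 164.1 CPM for RV-Cre. *Xcl1* alone held 104.4 and 26.0 CPM of these sums, and without it the Control sum was not the higher one. Receptor genes *Klrd1* with 240 and 57 reads, *Klrk1* with 41 and 9 and *Klre1* with 32 and 5 had ratios from 0.176 to 0.268. The chemokine gene *Xcl1*, with 1441 and 320 reads, had one of 0.251. The other lower ones, *Crtam*, *Slamf7* and *Cd160*, had ratios of 0.310, 0.397 and 0.442. Between the thresholds lay *Klrc1*, *Fcgr3* and *Ccl5*, with ratios of 0.730, 0.892 and 1.62. *Cd8a* with 322 and 580 reads and *Cd8b1* with 122 and 274 had ratios of 2.03 and 2.53. The NK cell marker *Ncr1* had 0 and 8 reads, and *Klrb1c* (NK1.1) had 12 and 0. Exons of *Klrb1c*, *Xcl1*, *Slamf7*, *Cd160* and *Cd3e* overlap those of other annotated genes. Whether CD8 T or NK cells were present, and their part in the granule gene values, was not tested.

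Myeloid markers summed to 27.0 and 45.6 CPM over 15 genes, of which 11 had reads. Of the 9 past the minimum, 3 were higher by 2-fold (beside 14.2% of all genes), 2 lower (beside 12.3%) and 4 between. *Csf1r*, whose exons overlap another annotated gene, was at 16 and 110 reads and *S100a8* at 6 and 69, whereas *Itgax* was at 27 and 1 and *Lyz2* at 22 and 7. *Mpo*, *Elane*, *Prtn3* and *Ctsg* were at 0. B cell markers summed to 3.70 and 9.51 CPM, with 5 of 6 read, *Cd79b* at 18 and 11 reads and *Pax5* at 0, and erythroid markers to 3.19 and 19.2 CPM. Of 12 mast cell and basophil markers, whose proteases lie in granules too, 5 had reads, and *Cpa3*, *Mcpt1*, *Mcpt2*, *Mcpt4*, *Tpsab1*, *Tpsb2* and *Fcer1a* were at 0 in either library. Their sum was 8.70 and 12.4 CPM, most of it *Kit*. Of 16 Th17 markers, 15 passed, of which 6 were lower by 2-fold and 0 higher, beside the same 12.3% and 14.2%, among the lower ones *Il17a* at 424 and 103 reads. The marker sums of myeloid, mast, B and erythroid cells were thus higher in the RV-Cre library. That of CD8 T and NK cells, with *Xcl1* in it, was lower. Myeloid markers past the minimum differed by 2-fold in both directions. Among 4 B cell and 3 erythroid markers past it, 3 of either list were higher by 2-fold (beside 14.2% of all genes) and 0 lower (beside 12.3%). Of these markers with a 2-fold difference, all but *Csf1r* and *Hba-a1* had log2 values that averaged under 5. Of all genes past the minimum in that range, 49.9% were higher by 2-fold and 20.8% lower. Whether such cells were present, and their part in the results, was not tested.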

How the data were processed

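Per the labels, 500 ng of total RNA per sample went into a Lexogen QuantSeq kit. The authors deposited raw counts, that is, whole reads per gene symbol in 1 table per library, without normalization. The submitters' processing notes name bcl2fastq 2.20.0.422, Bowtie2, bedtools and mm10, and the read filters, the annotation and the use of strand are not given in the sources used here. Counts were read from 23282 rows, of which 79 share a symbol with another row and stayed out of the gene lists. Size factors by TMM (edgeR 4.0.16, R 4.3.3) were 1.06 for Control and 0.941 for RV-Cre. Ratios were compared as log2(normalized reads + 1). The minimum was a log2 value of 4 in at least 1 library, and a change was 2-fold. No test across genes was run, because a condition has a single library. Intervals of ratios and shares are exact Clopper-Pearson 95% intervals, those of proportions between genes are conditional odds ratio intervals, and those of single counts are exact Poisson intervals (scipy 1.17.1). The counts carry no molecular identifiers, so intervals, and the 3 reads that a 0 allows, describe counting error alone. The fold calls and the ratio intervals were tried on counts simulated with Poisson error alone and known fold changes in well-read genes. That is the error that the intervals assume. The simulation did not cover fold changes in genes with few reads or variation between libraries.

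The granule genes and the gene lists were chosen with earlier results of these data known. Besides the granule genes and *Ptk2*, the text names up to 3 genes with the largest and up to 3 with the smallest log2 ratio of each list, genes in a genomic cluster with a granule gene, and markers with reads. Genes outside this rule are marked. Symbols were matched with RefSeq synonyms, and *Zfp683*, *Trac* and *Trbc2* matched no row. RefSeq gave no promoter window for *Ctsw*. Positions and overlaps came from GENCODE M21. The alternatives were library totals with and without *Rn45s*, DESeq2 1.42.0 size factors, *Gapdh* scaling, pseudocounts of 0.1 and 10, no minimum, a log2 minimum of 6, and fold thresholds of 1.5 and 3.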

Additional observations from a re-analysis of the deposited data

How the results depend on the processing

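No paired analysis was possible because only 1 library stands for a condition, and none could be left out. The log2 ratio of each of the 8 genes kept its sign under each of 4 other scalings. Pseudocounts cannot turn a sign, but 0.1 and 10 in place of 1 gave *Gzmc* -6.57 and -0.96 in place of -3.38, and *Prf1* 1.38 and 0.67 in place of 1.26. *Gzma* and *Gzmb* were called lower under every alternative, joined by *Gzmc* without an expression minimum and by *Srgn* at a fold threshold of 1.5. The number at least 2-fold higher, 0 in the report, was less steady. It was 1 without an expression minimum (*Prf1*). At a fold threshold of 1.5 in place of 2, the only higher gene was *Ctsw*. With library totals without *Rn45s* the number at least 2-fold higher was 1, since *Prf1* then passed the minimum. In that scaling the median of the genes past the minimum was -0.34, *Srgn* was at -0.88 and *Ctsw* at 0.73. Scaling to *Gapdh*, which itself had a ratio of 0.748, moved the median log2 ratio of all genes from -0.01 to 0.43. With it *Gzma* was at -1.51, *Nkg7* at 0.91, *Srgn* at -0.56, *Ctsw* at 1.06 and *Serpinb9* at -0.015, the median of the genes past the minimum was -0.015, and 2 genes, *Prf1* and *Ctsw*, were at least 2-fold higher. The share of higher genes among all changed genes went from 53.6% to 79.1% with *Gapdh* and 60.2% without *Rn45s*. Depth limits *Prf1* and *Gzmc*, at 14 reads or fewer. The cause of these differences was not tested.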
